A study of Rattus norvegicus with 6 samples.

Results

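Genes that mark macrophages or encode the complement protein C1q, 10 in all, were followed in rat chondrosarcoma cells and rat rib tissue. They are Csf1 and its receptor gene Csf1r, the pan-leukocyte gene Ptprc, the macrophage genes Aif1, Cd68, Mrc1 and Cd163, and the C1q chain genes C1qa, C1qb and C1qc. They were chosen by name, with earlier results of these data known. Each of the 10 had 1 entry among the 27217 genes of the deposited RNA sequencing table. The study sequenced 3 libraries of RCS cells, an established line of chondrocyte-like tumour cells, and 3 libraries of neonatal rat rib, a whole tissue in which cartilage lies beside bone, marrow, muscle, vessels and connective tissue. The labels name no treatment or genetic change in either group. They call the replicates biological but do not say which cultures or animals they came from, so p-values measure the spread between these libraries, which may be partly technical. RCS cells are a single line, and the groups differ in origin, in culture and in the cell types present at the same time, which cannot be told apart here.

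Macrophages are phagocytes that settle in most tissues, including bone marrow, periosteum and muscle, whereas cartilage itself holds few of them. They depend on the receptor CSF1R, which is switched on by either of its ligands, CSF1 and IL-34, and CSF1 is made largely by mesenchymal cells rather than by macrophages. C1q, the recognition part of the classical complement pathway, is assembled from the A, B and C chains, each with a collagen-like stalk, and in many tissues macrophages are its main source. C1q binds the proteases C1r and C1s, which then cut C4 and C2.

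The promoters of some members are shown first. PU.1, the product of Spi1, is a well-known activator of macrophage genes that binds sites with a GGAA core. Whether it had a part in the differences below was not tested. RefSeq promoter sequences of the assembly GRCr8 were found for 7 of the 10 members (Cd163, C1qb, C1qa, Cd68, Ptprc, Mrc1 and Csf1r). The 250 bases before the annotated start are given, 5′ to 3′ on the gene's strand, with matches to GAGGAA on either strand (read as TTCCTC on the other strand) in capitals. The genes are Csf1r (chr18:56834129-56834378, + strand), Mrc1 (chr17:82157475-82157724, + strand), C1qb (chr5:154407828-154408077, - strand) and C1qa (chr5:154419934-154420183, - strand).
Csf1r: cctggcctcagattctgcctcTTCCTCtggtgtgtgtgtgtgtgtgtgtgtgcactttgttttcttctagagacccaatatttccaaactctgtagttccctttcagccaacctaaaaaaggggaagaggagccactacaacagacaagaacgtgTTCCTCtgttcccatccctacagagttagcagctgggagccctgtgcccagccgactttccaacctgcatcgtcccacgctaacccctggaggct
Mrc1: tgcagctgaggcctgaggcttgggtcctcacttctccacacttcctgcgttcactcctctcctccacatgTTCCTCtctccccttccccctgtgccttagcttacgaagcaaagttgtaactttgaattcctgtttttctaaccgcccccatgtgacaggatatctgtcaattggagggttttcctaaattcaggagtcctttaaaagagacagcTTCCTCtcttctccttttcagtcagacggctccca
C1qb: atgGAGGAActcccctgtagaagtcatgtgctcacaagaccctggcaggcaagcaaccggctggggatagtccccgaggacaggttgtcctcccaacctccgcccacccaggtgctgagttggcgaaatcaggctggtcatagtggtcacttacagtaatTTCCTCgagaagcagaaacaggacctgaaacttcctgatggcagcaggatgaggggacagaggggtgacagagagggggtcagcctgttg
C1qa: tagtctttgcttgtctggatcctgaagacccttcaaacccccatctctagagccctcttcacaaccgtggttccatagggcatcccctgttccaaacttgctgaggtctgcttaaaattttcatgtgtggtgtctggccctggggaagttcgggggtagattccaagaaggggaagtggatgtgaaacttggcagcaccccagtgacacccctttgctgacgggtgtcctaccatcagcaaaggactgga
The motif was present in 5 of the 7 windows, with 2 matches each in Csf1r, Mrc1 and C1qb and 1 each in Cd68 and Ptprc. It was not found in the windows of C1qa and Cd163. GAGGAA is narrower than the GGAA core, and GGAA outside it stays in lower case. Such cores occur in the windows of C1qa and Cd163 too, so the missing match does not mean that sites with this core are missing. Among all 33469 RefSeq promoter windows of the same length, 23.3% held at least 1 match. A match describes these letters only, and binding was not measured. C1qb, C1qc and C1qa are direct neighbours among protein-coding genes in the RefSeq annotation, in that order.

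Levels are normalized counts, which are reads on a gene divided by 1 factor per library, and they are not divided by gene length, so different genes are not ranked by level. A normalized count of 1 or less is listed as 0 in the deposited table. Estimated depth ran from 6000000 to 8530000 reads on genes in the RCS libraries and from 5320000 to 7490000 in the rib libraries. The chondrocyte genes checked (Col2a1, Acan, Col9a1, Col11a1, Hapln1, Matn1 and Sox9) were listed above 0 in all 6 libraries. In limma on log2(normalized count + 1), with a Benjamini-Hochberg adjusted p under 0.05 over 16809 genes, 43.6% of all genes tested were lower in RCS cells and 32.9% were higher. Calls in either direction covered 76.5% of the genes tested. Genes higher in RCS cells made up 43.1% of these calls, and 58.5% with quantile normalization, which moved the median difference of all genes by 0.43 on the log2 scale.

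All 10 members were lower in RCS cells than in rib tissue by this test, and in all 10 every RCS library lay below every rib library, which held for 44.5% of the genes tested. The median difference of the members was -6.63 on the log2 scale, beside -0.15 over all genes tested. This median, like those of the lists with many genes at 0, depends on the constant added before the logarithm, and C1qb alone moved from -6.66 to -9.97 with 0.1 and to -4.39 with 5 in place of 1. Of the members, 6 were listed at 0 in every RCS library (11.6% of the genes tested), and these entered the test through rib tissue and could only come out lower. The same holds for every list gene below that was at 0 in every RCS library. The other 4, Csf1, Csf1r, Mrc1 and Cd68, were listed above 0 in all 3 RCS libraries. In bulk libraries, fewer cells of a type and less RNA per cell cannot be told apart.

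**Figure D1:**
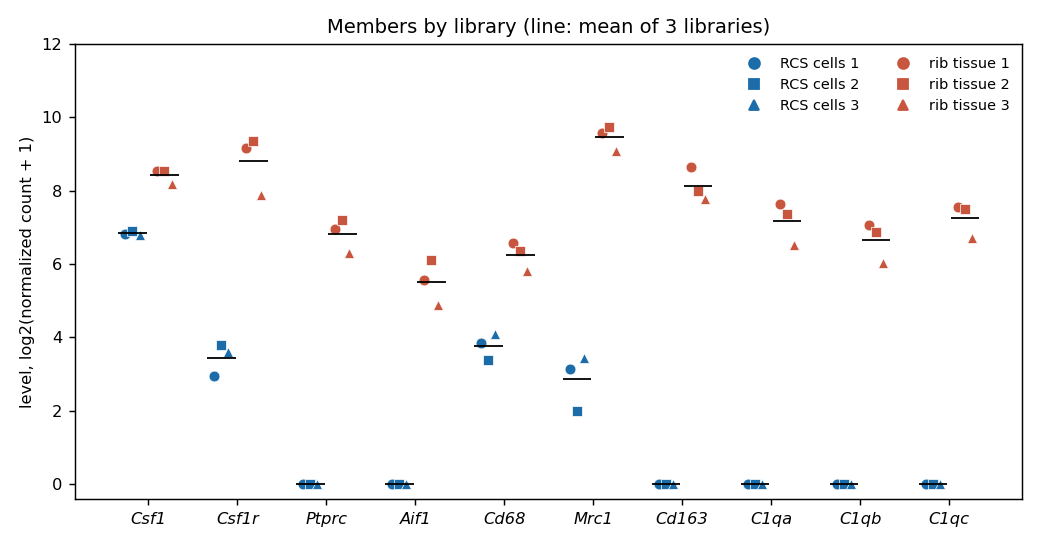
Level of each member as log2(normalized count + 1) on the vertical axis in the 3 RCS libraries (blue) and the 3 rib libraries (red), with lines at group means. Csf1 is the member nearest between the groups (6.84 against 8.42), and 6 members lie at 0 in every RCS library.

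The ligand gene was the member with the smallest difference between the groups. Csf1, which encodes macrophage colony-stimulating factor (ENSRNOG00000018659), stood at 111, 118 and 110.1 normalized counts in RCS cells replicates 1 to 3 and at 370.5, 372 and 291 in the rib libraries, in the same order. The RCS values lay close together, and all were below the lowest rib value. Rib tissue had 3.01 times the level of RCS cells, and the log2 difference was -1.59 (SE 0.12, 95% interval -1.86 to -1.31, limma Benjamini-Hochberg adjusted p 5.88e-06).

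Csf1r, the receptor of CSF1 and a defining gene of macrophages and their precursors (ENSRNOG00000018414), stood at 6.73, 13.0 and 11.2 normalized counts over the RCS libraries and at 578, 652 and 237 in those of rib. Rib tissue replicate 3 was well below the other rib libraries and still far above every RCS library. The difference was -5.36 (SE 0.39, limma Benjamini-Hochberg adjusted p 5.32e-06), and -4.38 under quantile normalization. The RCS values correspond to an estimated 12.4 to 25.0 reads per library. In the RefSeq annotation Csf1r lies between Pdgfrb and Hmgxb3, which stood at 4.51 ± 0.17 and 9.82 ± 0.02 (log2, SD, n = 3) in RCS cells. Whether reads of a neighbouring gene entered the Csf1r value was not tested.

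Within a library, the log2 ratio of Csf1 to Csf1r was 3.86, 3.10 and 3.19 in RCS cells and -0.64, -0.81 and 0.29 in rib tissue. Ligand reads outnumbered receptor reads in every RCS library, while in rib tissue this was so in replicate 3 alone. The ratio averaged 3.38 ± 0.42 in the line and -0.38 ± 0.59 in rib (SD, n = 3), which differ by 3.77. This change of a ratio does not depend on gene length. The exact two-sided permutation test gave p = 0.1, the smallest value that 3 libraries against 3 allow.

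Il34, the gene of the other ligand, was lower in RCS cells (limma Benjamini-Hochberg adjusted p 1.69e-05). It was listed above 0 in 1 RCS library and stood at 5.66 ± 0.31 (log2 level) in rib tissue. Spi1, which encodes PU.1, was at 0 in each RCS library and stood at 5.27 ± 0.57 in rib tissue. Tyrobp, an adaptor that signals for many myeloid receptors, was also at 0 in every RCS library, against 5.80 ± 0.72. Runx1, a blood and skeletal transcription factor, differed by -4.83 (SE 0.13). Csf2ra, a receptor chain for the growth factor GM-CSF, differed by -1.61 (SE 0.23), a call that was lost under quantile normalization (-0.42).

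Of the 19 genes on the list of CSF1 axis and macrophage transcription factors, 16 were tested, 15 were lower in RCS cells and 1, Cebpb, did not pass the test (-0.18). The median difference was -4.77, and 6 of the 16 were listed at 0 in every RCS library. Nearest to Csf1r among 173 genes of the other lists, by Euclidean distance of centred log2 levels over the 6 libraries, were Lyve1 (0.785), Cd53 (0.808) and Tpsab1 (0.816). Nearest to Csf1 were Timd4 (0.429), Cd47 (0.496) and Csf2ra (0.500). Timd4 was at 0 in every RCS library and at 1.50 ± 0.36 (log2 level) in rib tissue. That is near the listing threshold, so its distance depends on the added constant. These 6 libraries form just 2 groups, so the distance mostly reflects the size of the group difference.

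Ptprc encodes CD45, the phosphatase carried by nearly all nucleated blood cells (ENSRNOG00000000655). It was at 0 in each RCS library and stood at 123, 147 and 78.0 normalized counts in rib tissue replicates 1 to 3. Aif1, the gene of the actin-binding protein IBA1 (ENSRNOG00000000853), was also at 0 in every RCS library, with 46.6, 68.0 and 28.5 in rib tissue. Both were highest in rib tissue replicate 2 and lowest in replicate 3. The limma differences were -6.82 (SE 0.31) for Ptprc and -5.52 (SE 0.36) for Aif1, and for genes at 0 in 1 group these sizes depend on the constant added before the logarithm.

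All 22 genes on the pan-leukocyte list were lower in RCS cells. Of them, 13 were at 0 in all 3 RCS libraries and could only come out lower. Their median difference was -4.85. Cd53, a membrane protein of leukocytes, stood at 5.09 ± 0.63 (log2 level) in rib tissue and at 0 in every RCS library. Not every gene of the list was near 0 in the line. Cd48, an adhesion protein gene, stood at 7.92 ± 0.11 in the line and 8.28 ± 0.14 in rib. The difference of -0.36 did not pass the test without RCS cells replicate 1 (-0.33) or replicate 2 (-0.32). Laptm5, a lysosomal protein gene of blood cells, stood at 5.05 ± 0.17 and 6.60 ± 0.58, and its call was lost under quantile normalization (-0.61).

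Cd68 encodes macrosialin, a glycoprotein of late endosomes and lysosomes (ENSRNOG00000037563). It stood at 13.4, 9.42 and 16.2 normalized counts over the RCS libraries and at 93.9, 80.8 and 54.8 in those of rib. No RCS value reached the lowest rib value, and the gap was the second smallest among the members after Csf1. Cd68 was 5.52-fold higher in rib tissue (difference -2.47, SE 0.28, limma Benjamini-Hochberg adjusted p 7.6e-05), with a difference of -1.75 under cyclic loess and -1.07 under quantile normalization. Its neighbours in the RefSeq annotation, Mpdu1 and Eif4a1, stood at 7.41 ± 0.04 and 10.14 ± 0.13 (log2 level) in RCS cells, and whether their reads entered the Cd68 value was not tested.

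Mrc1 encodes the mannose receptor CD206 of tissue macrophages, which is also made by some endothelial cells (ENSRNOG00000018251). It stood at 7.89, 3.03 and 9.92 normalized counts over the RCS libraries and at 757, 855 and 542 in those of rib. In RCS cells these are an estimated 14.5, 5.83 and 14.0 reads, so the RCS level rests on few reads. The difference was -6.59 (SE 0.36), with -5.48 under quantile normalization, -5.94 with a pseudocount of 5 and -7.20 with array weights. Unlike Csf1r and Cd68, its neighbours Tmem236 and Slc39a12 were listed at 0 in every RCS library.

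Cd163, the scavenger receptor for hemoglobin bound to haptoglobin (ENSRNOG00000010253), was at 0 in each RCS library and stood at 399, 252 and 219 normalized counts in rib tissue. Its highest rib library was replicate 1. The limma difference was -8.14 (SE 0.29), a size that follows from the rib level and the added constant.

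Of 24 other macrophage surface and scavenger genes, 22 were tested, 20 were lower in RCS cells and 2 did not pass the test, with a median difference of -4.62. Of the 22 tested, 11 were at 0 in every RCS library and could only come out lower. Adgre1, listed under its older symbol Emr1 and known as F4/80, was at 0 in every RCS library and at 6.78 ± 1.02 (log2 level) in rib tissue. The scavenger receptor gene Stab1 stood at 4.86 ± 0.20 in the line and 9.68 ± 0.45 in rib (28.2-fold), and Lyve1, a hyaluronan receptor gene of macrophages and lymphatic vessels, at 2.80 ± 0.46 and 7.91 ± 0.35. Lgals3, the galectin-3 gene, which chondrocytes also express, stood at 7.64 ± 0.11 and 8.74 ± 0.17, 2.15-fold higher in rib tissue. Cd14, the co-receptor for bacterial lipopolysaccharide, differed by -0.64, a call that was lost and turned to 0.12 under quantile normalization.

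The C1q chain genes were all absent from the listed values of RCS cells. C1qa (ENSRNOG00000012807) was at 0 in every RCS library and at 199, 164 and 90.3 normalized counts in rib tissue replicates 1 to 3. C1qb (ENSRNOG00000012749) was likewise at 0 and stood at 133, 116 and 64.8, and C1qc (ENSRNOG00000012804) at 0 and at 189, 180.0 and 103. All the chain genes followed the same order over the rib libraries, with replicate 1 highest and replicate 3 lowest. A value of 0 allows a normalized count of 1 at most, equal to 1.84, 1.93 and 1.41 reads in the RCS libraries, so a single read would also be listed as 0 there. The limma differences were -7.17 (SE 0.34), -6.66 (SE 0.33) and -7.26 (SE 0.30) for the A, B and C chains, with Benjamini-Hochberg adjusted p of 4.44e-07, 5.84e-07 and 2.54e-07. These genes entered the test through rib tissue and could only come out lower, and their listed RCS values had no spread.

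The proportions of the chain genes were steady while their sum moved. The summed normalized count of C1qa, C1qb and C1qc was 521, 459 and 259 in rib tissue replicates 1 to 3. C1qa made up 36.2% ± 1.7 of the sum, C1qb 25.3% ± 0.3 and C1qc 38.5% ± 2.0 (SD, n = 3). These shares are of reads and not of molecules, since the values are not divided by length.

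**Figure D2:**
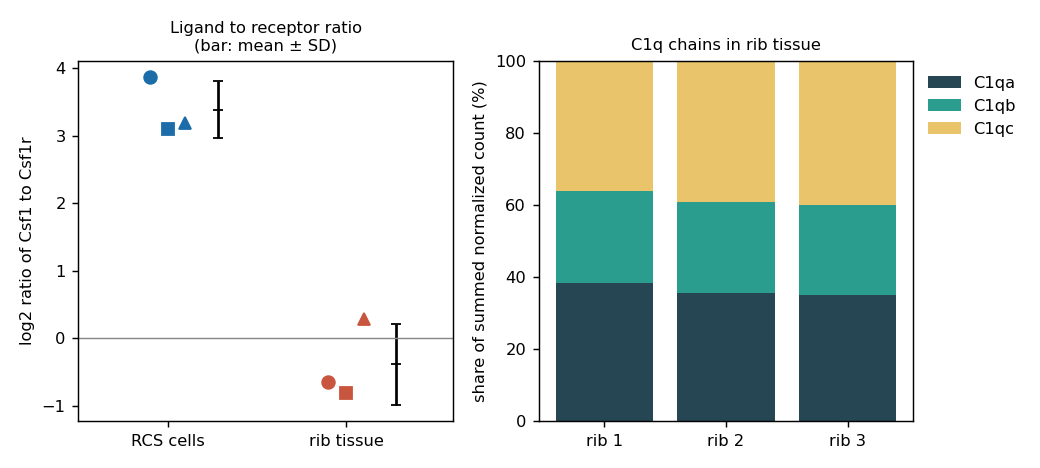
Left, the log2 ratio of Csf1 to Csf1r in each library with the mean and SD of each group, where all RCS libraries lie above 3 and the rib libraries between -0.81 and 0.29. Right, the share of each C1q chain gene in their summed normalized count (percent) in the 3 rib libraries, with C1qb between 25.1% and 25.6% in all of them.

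Genes acting beside C1q in the classical pathway did not follow it evenly. C1r, the first protease of the complex, was higher in RCS cells, at 9.43 ± 0.01 against 8.67 ± 0.35 (log2 level), 1.69-fold (difference 0.76, SE 0.16, limma Benjamini-Hochberg adjusted p 0.00232). C1s, the protease that C1r activates, stood at 6.66 ± 0.42 and 7.87 ± 0.36 and was 2.32-fold higher in rib tissue (-1.21, SE 0.24). The substrate gene C2 stood at 4.29 ± 0.31 and 7.67 ± 0.42, and the entry matched to C4a, which carries the symbol of its near-identical relative C4b in the table and is uncertain for that reason, at 2.32 ± 0.69 and 8.19 ± 0.87. Serping1, the inhibitor of C1r and C1s, was at 0 in each RCS library and stood at 7.06 ± 0.24 in rib tissue. C3, the central component, stood at 4.99 ± 0.26 and 5.65 ± 1.37 and did not pass the test (-0.66, 95% interval -2.03 to 0.71), and it turned to 0.64 under quantile normalization and was called lower without rib tissue replicate 3 (-1.45) and with array weights (-1.11).

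Of 21 complement cascade genes in the table, 16 were tested, with 13 lower in RCS cells, 2 higher and 1 neither, and a median difference of -2.40. The second gene that was higher was C8g, a subunit of the membrane attack complex, at 6.91 ± 0.10 and 6.11 ± 0.20 (1.74-fold, and a difference of 1.55 in place of 0.80 under quantile normalization). Colec12, a scavenger receptor of the collectin family, was 4.35-fold higher in rib tissue (-2.12, SE 0.11). Of 17 complement regulators and receptors, 15 were tested, with 12 lower in RCS cells, 2 higher and 1 neither, and a median difference of -3.89. At 0 in every RCS library were 2 of the 16 cascade genes and 6 of these 15, which could only come out lower. The regulator gene Cd55 was lower in RCS cells, at 0 in every RCS library against 7.37 ± 0.44 in rib. Higher in RCS cells were C1qbp (1.30-fold, 0.38, SE 0.08), a mainly mitochondrial protein named for binding C1q, and Calr (1.50-fold, 0.59, SE 0.11). Calr encodes the endoplasmic reticulum chaperone calreticulin, which can also bind C1q at the cell surface. The Calr difference ran from 0.21 to 1.19 over 16 alternative fits, with 1.19 under quantile normalization.

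**Figure D3:**
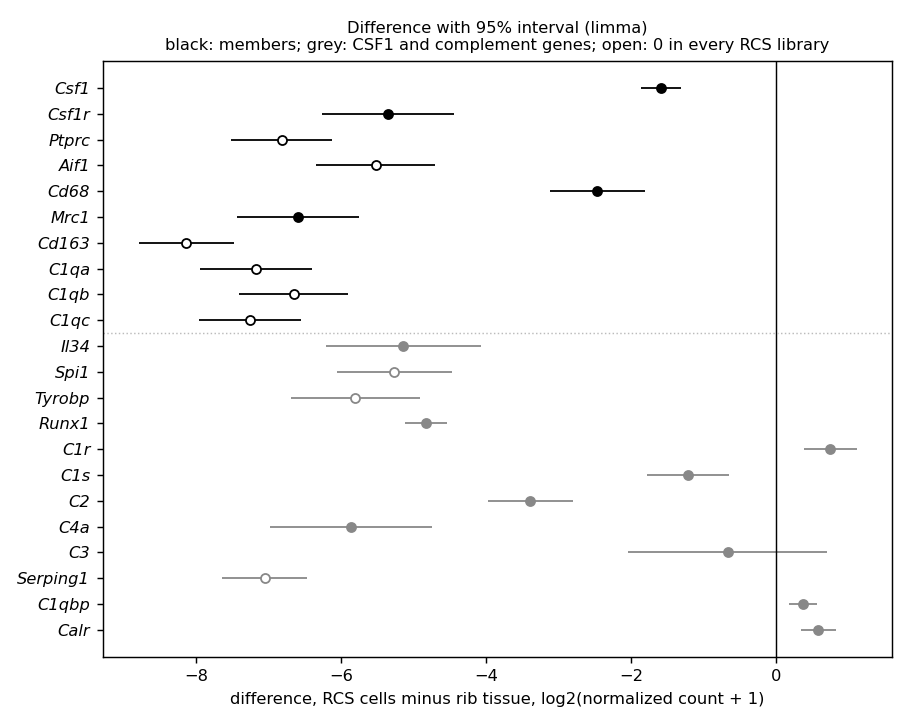
Difference between RCS cells and rib tissue in log2(normalized count + 1) on the horizontal axis, with the 95% interval from limma, for the 10 members (black) and 12 genes of the CSF1 axis and complement (grey). Open points mark genes at 0 in every RCS library, and C1r, C1qbp and Calr lie above 0.

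Phagocytosis of dying cells is a main task of macrophages and can be opsonized by C1q. Of 19 genes on the list for it, all tested, 12 were lower in RCS cells, 5 higher and 2 neither, with a median difference of -1.05. Among receptors of the TAM family, Axl was listed above 0 in 1 RCS library and stood at 10.16 ± 0.29 in rib tissue, whereas Tyro3 was 1.70-fold higher in RCS cells (0.76, SE 0.10). Mertk, the TAM receptor best known from macrophages, differed by -0.37, a call lost under 9 of 16 alternatives, and its ligand gene Gas6 was 4.24-fold higher in rib tissue. The bridging protein gene Mfge8 was 2.60-fold higher in RCS cells (1.38), and the adaptor gene Gulp1 was 1.96-fold higher. The Mfge8 difference ran from 0.99 to 2.15 over the 16 alternatives, with 2.15 under quantile normalization. The endocytic receptor gene Lrp1 was 6.10-fold higher in rib tissue (-2.61, and -1.80 under quantile normalization). Sirpa, which encodes an inhibitory receptor of myeloid and some other cells, was at 0 in each RCS library and stood at 9.09 ± 0.03 in rib tissue, while its ligand gene Cd47 stood at 5.89 ± 0.01 and 7.24 ± 0.18.

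The members shared their lowest rib library, while their order in the other rib libraries differed. All 10 were lowest in rib tissue replicate 3, where 38.9% of 14544 genes with a rib mean of at least 10 normalized counts had their lowest value. Relative to the mean of rib tissue replicates 1 and 2, replicate 3 lay lower by a log2 difference of -1.37 for Csf1r, -0.99 for C1qa, -0.96 for Aif1, -0.93 for C1qb, -0.83 for C1qc, -0.78 for Ptprc, -0.66 for Cd68, -0.57 for Mrc1, -0.53 for Cd163 and -0.35 for Csf1. The median was -0.80 over the members and -0.02 over those 14544 genes. Replicate 3 was also the lowest for 19 of 21 pan-leukocyte genes (median -0.93), 6 of 7 osteoclast genes (-1.02) and 8 of 8 endothelial genes (-0.59), and for none of the 7 chondrocyte genes (median 0.43). The lists nearest to the 38.9% over all genes were complement cascade (8 of 15, median -0.33) and clearance of apoptotic cells (9 of 19, median -0.03). Whether these values share a source, such as the tissue content of the piece, was not tested. Without rib tissue replicate 3, all 10 members were still lower in RCS cells. For those at 0 in every RCS library this direction was fixed in advance.

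**Figure D4:**
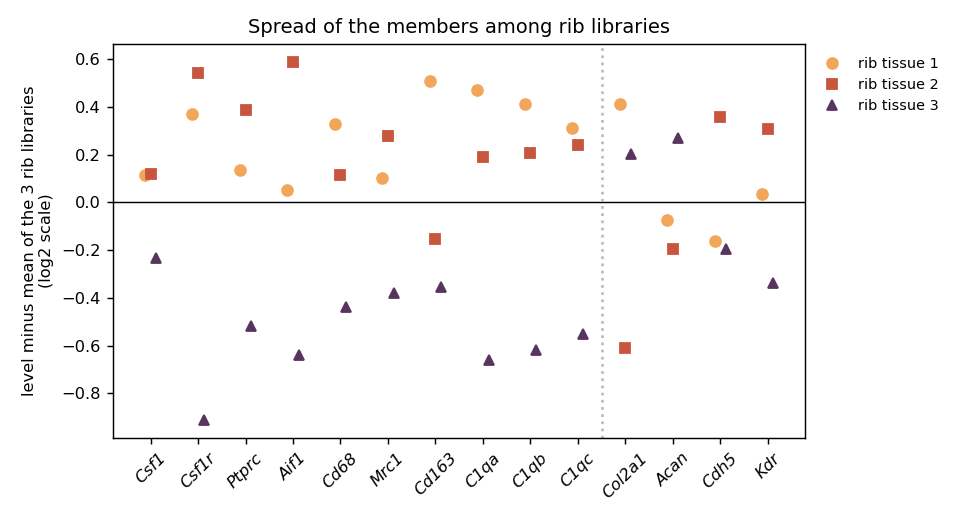
Level of each member in each rib library minus its mean over the 3 rib libraries (log2 scale), with 2 chondrocyte genes (Col2a1, Acan) and 2 endothelial genes (Cdh5, Kdr) to the right of the dotted line. Replicate 3 is the lowest for all 10 members and above the mean for Col2a1 and Acan.

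Set against Ptprc in the same library, the spread narrowed for 7 of the 9 other members. The SD of the log2 level over the rib libraries fell by this step from 0.63 to 0.19 for Aif1, from 0.48 to 0.16 for C1qc, from 0.34 to 0.13 for Mrc1, from 0.80 to 0.34 for Csf1r and from 0.59 to 0.29 for C1qa. It did not narrow for Csf1 (0.20 and 0.28) or Cd163 (0.45 and 0.48). With 3 libraries and a shared denominator this is a description, without a test. The step was not applied to genes outside the members. A gene that is lowest in replicate 3, as Ptprc was, can narrow by it whatever cells express it. All 8 endothelial genes were also lowest in that library, so the narrowing cannot be read as particular to the members.

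Marker genes of other cell types that carry some of the members were mostly higher in rib tissue as well. Osteoclasts, which arise from the same precursors as macrophages, were followed by 10 genes, of which 9 were tested and 7 were lower in RCS cells, and their summed normalized count was 154 to 200.3 in the line, most of it Nfatc1, and 1236 to 3037 in rib. Dcstamp (0.15) and Oscar (-0.69) did not pass the test. Acp5, Calcr, Tnfrsf11a and Atp6v0d2 were at 0 in every RCS library. The osteoclast genes named for a high mean were Nfatc1 (-1.73, SE 0.15) and the gelatinase gene Mmp9 (-5.30, SE 0.77, -4.51 without rib tissue replicate 1 and -6.21 without replicate 3). Of 8 endothelial genes, 7 were lower, and their summed count was 424 to 480 in the line and 2867 to 4564 in rib, with Cdh5, Kdr, Tie1 and Emcn at 0 in every RCS library. The gene that did not pass the test was Vwf (8.72 ± 0.11 against 8.92 ± 0.37), which made up most of the sum in the line. The members summed to 139 to 147 and 1709 to 2889, and Csf1 made up most of the sum in the line. The part of these cell types in the rib levels of Csf1r, Mrc1 and the other members was not tested.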

How the data were processed

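RNA sequencing values of 3 RCS cell libraries and 3 neonatal rib libraries came from 1 table, with groups and replicate numbers from the sample titles. The values deposited by the authors are log2 values. The submitters' processing notes name CASAVA 1.8, DESeq and rn5 without a role. For the aligner, counting rule and use of strand, the choice is not given in the sources used here. Frequent low values, back on the linear scale, were multiples of 1 step per library shared by many genes, so values were taken as the log2 of reads scaled by 1 factor for each library, and not per gene length, although the table's name carries that unit. Depending on the library, 38.5% to 54.6% of values up to 10 reads were whole numbers of reads to within 0.01, so count models were not applied. Depth is the summed normalized count divided by the step.

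Log2(normalized count + 1) was tested by limma 3.58.1 under R 4.3.3 (trended empirical Bayes, two-sided), after a test on simulated data. Benjamini-Hochberg adjustment covered the 16809 genes that reached a normalized count of 1 in 3 or more of the 6 libraries, which fits with a library left out also used. Fold changes are on that scale and given only if both group means reached 10, and ± is SD with n = 3. No libraries were identical (0 pairs). Of 190 names in the member list and 11 other lists, 189 matched an entry. The members and lists were chosen with earlier results of these data known. Named genes were the members, in each list outside the chondrocyte and endothelial ones the 2 of highest mean and up to 2 raised most in RCS cells, the 3 nearest to Csf1r and to Csf1, and 18 chosen after their values were seen (Il34, Spi1, Tyrobp, Adgre1, Cd14, C1s, C2, C4a, C3, Serping1, Cd55, Sirpa, Axl, Tyro3, Mertk, Gas6, Cma1 and Cpa3). A further list gene is counted but not reported here. Genes named only as at 0, as not passing the test, as neighbours or as other cell type markers were also chosen after their values were seen. Promoters are from RefSeq (GRCr8), another build than that of the values.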

Additional observations from a re-analysis of the deposited data

How the results depend on the processing

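All 10 members were called lower in RCS cells under all 16 alternatives: 3 other normalizations, 2 other filters, 2 other pseudocounts, no intensity trend, array weights, the replicate block and each library left out. For the 6 members at 0 in every RCS library this direction was fixed in advance. Only Csf1, Csf1r, Mrc1 and Cd68 could have changed direction. The genes called over the whole table numbered 12860 and stayed within 1.5 times that number in all 16. Quantile normalization raised the share of calls towards RCS cells from 43.1% to 58.5%. The log2 ratio difference of Csf1 to Csf1r ran from 3.53 to 4.11 with a library left out and was 2.97 under quantile normalization and 3.885 with a pseudocount of 0.1. Under quantile normalization 3 named genes turned positive without passing the test, Hdc (0.46), Cd14 (0.12) and C3 (0.64), and the cause was not tested. Members at 0 in RCS cells have sizes set by the added constant, for Cd163 -11.45 with 0.1 and -5.84 with 5.

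Replicate numbers gave no clear pairing of the samples, which 3 libraries per group are too few to settle. Deviations of same-numbered libraries from their group means correlated across genes at 0.11, -0.15 and 0.05, and not every library correlated best with its own number. The fit with the replicate block called 12876 genes and all 10 members, with the direction fixed for members at 0 in every RCS library. Genes listed at 0 are limited by the listing threshold, and leaving out a library lets the remaining spread stand for its group.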

Other observations

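Markers of other blood cells in rib tissue were uneven. The mast cell protease genes Cma1 (6.04 ± 0.84, log2 level), Cpa3 (6.41 ± 0.92) and Tpsab1 (5.42 ± 0.63) were at 0 in every RCS library, while Fcer1a, a receptor gene of mast cells, stood at 2.11 ± 0.81 in rib tissue. Of 15 neutrophil and mast cell genes in the table, 9 were tested, 8 were lower in RCS cells and 1, the receptor gene Kit, did not pass the test (7.61 ± 0.07 against 8.12 ± 0.47, called lower under 6 of 16 alternatives, among them without rib tissue replicate 1, at -0.77). Of the 9 tested, 5 were at 0 in every RCS library and could only come out lower. Hdc, the histamine-forming enzyme gene, differed by -1.29 (SE 0.41), a call lost under cyclic loess (-0.40) and without RCS cells replicate 1 (-1.12), and the direction turned under quantile normalization (0.46).

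Lymphocyte genes were mostly near 0 in both groups. Of 17 genes, 7 were tested, 3 were lower in RCS cells, 2 higher and 2 neither. Cd4, which rat macrophages also carry, stood at 0.90 ± 0.84 in the line and 7.53 ± 0.36 in rib, while Cd3d, Ms4a1 and Gzmb were listed at 0 in all 6 libraries. A pair of genes best known from lymphocytes were higher in RCS cells. These were the kinase gene Lck (4.79 ± 0.11 against 3.90 ± 0.37, a difference of 0.89, 1.92 under cyclic loess and 2.81 under quantile normalization) and the B-cell receptor gene Cd79a, found through its Entrez identifier (4.02 ± 0.29 against 0.99 ± 0.97), with Cd79b at 0.42 ± 0.74 in RCS cells.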
